A study of Mus musculus and Homo sapiens with 41 samples.

Results

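The genes of the Polycomb and H3K4/H3K27 methylation machinery were followed in the RNA-seq data, 40 genes matched by symbol among the 53756 rows of the table for granulocyte-monocyte progenitors (GMPs) and, for 38 of them, among the 13238 rows of the table for 416b cells. They were grouped by complex, with 10 genes of Polycomb repressive complex PRC2, 15 of PRC1, 9 of the H3K4 methyltransferase complexes and 6 demethylases. The study asked how the transcription factor PLZF, encoded by Zbtb16, shapes gene expression and chromatin in myeloid progenitors. GMPs, the Lineage-, c-Kit+, Sca-1-, Cd34+, FcγR+ bone marrow cells that give rise to granulocytes and monocytes, were sorted from irradiated recipients reconstituted with C57BL/6 bone marrow that was either wild type (WT) or Zbtb16lu/lu, the luxoid mutation of Zbtb16. The WT and Zbtb16lu/lu groups shared the transplantation, and the donor genotype was the labelled difference, and each held 2 sequenced libraries. 416b is a murine myeloid progenitor cell line. Its cells carried a GFP lentivirus with either Flag-tagged PLZF (PLZF-Flag) or no insert (Empty vector), were sorted for GFP, and gave 1 library per condition, so PLZF is overexpressed there from a vector and no replicate is at hand.

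PRC2 methylates lysine 27 of histone H3 through Ezh1 or Ezh2, the catalytic subunits, held by Eed and Suz12. PRC1 ubiquitinates histone H2A through Ring1 or Rnf2, each paired with a PCGF protein, and its canonical forms read H3K27 methylation through CBX proteins. The KMT2 and SETD1 enzymes, with the shared subunits Wdr5, Ash2l and Rbbp5, methylate H3K4 at promoters and enhancers, and KDM enzymes remove these marks. In blood, Ezh2, Bmi1 and Kmt2a are known for their roles in stem and progenitor cells and in leukemia.

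Polycomb and KMT2 complexes are known to occupy promoters rich in CpG, and the promoters of the machinery were themselves CpG-rich. Promoters of 33 members were matched in RefSeq (GRCm38.p6), each taken as the 250 bases before the annotated start, or before the most upstream one for the 5 members with several. The motif CG, which reads the same on both strands, occurred a median of 21 times in them, from 1 in Aebp2 and 5 in Pcgf2 to 48 in Kmt2c. Over the 27025 genes with a promoter the median was 6, and 16.1% had at least 21. A count of at least 6 was found in 31 of the 33 members, against 50.5% of all promoters. No comparison was made with the promoters of expressed genes only. Pcgf1, Cbx2, Kmt2b, Setd1b, Ash2l, Kdm5a and Kdm6b had no matched promoter. The promoters of Cbx7 and Cbx8, the members with the highest Zbtb16lu/lu values relative to WT among those whose libraries did not overlap, and of Pcgf3 and Bmi1, those with the lowest, are printed 5′ to 3′ on the strand of the gene, with each CG in capitals. They held 23, 22, 16 and 21 CG. The RefSeq start of Cbx7 lies 38.5 kb inside the GENCODE gene, and 1 other of the 33 starts, that of Jarid2, lies more than 1 kb inside (1.30 kb).
Cbx7, chr15:79932647-79932896, minus strand: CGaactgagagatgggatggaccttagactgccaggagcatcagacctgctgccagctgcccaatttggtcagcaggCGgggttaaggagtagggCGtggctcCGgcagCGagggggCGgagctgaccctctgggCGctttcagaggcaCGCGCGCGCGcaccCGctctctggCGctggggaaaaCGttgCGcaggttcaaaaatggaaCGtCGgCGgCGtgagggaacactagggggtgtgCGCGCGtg
Cbx8, chr11:119040914-119041163, minus strand: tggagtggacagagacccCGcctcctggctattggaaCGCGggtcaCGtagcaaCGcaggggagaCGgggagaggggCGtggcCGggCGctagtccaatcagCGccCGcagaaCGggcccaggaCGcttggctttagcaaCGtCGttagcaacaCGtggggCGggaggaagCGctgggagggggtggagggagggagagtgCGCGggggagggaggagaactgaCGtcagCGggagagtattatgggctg
Pcgf3, chr5:108461009-108461258, plus strand: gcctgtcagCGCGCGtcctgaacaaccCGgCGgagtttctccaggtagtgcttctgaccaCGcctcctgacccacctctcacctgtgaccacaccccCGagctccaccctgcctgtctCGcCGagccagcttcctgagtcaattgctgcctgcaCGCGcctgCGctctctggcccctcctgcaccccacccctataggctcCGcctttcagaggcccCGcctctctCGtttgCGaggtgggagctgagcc
Bmi1, chr2:18676768-18677017, plus strand: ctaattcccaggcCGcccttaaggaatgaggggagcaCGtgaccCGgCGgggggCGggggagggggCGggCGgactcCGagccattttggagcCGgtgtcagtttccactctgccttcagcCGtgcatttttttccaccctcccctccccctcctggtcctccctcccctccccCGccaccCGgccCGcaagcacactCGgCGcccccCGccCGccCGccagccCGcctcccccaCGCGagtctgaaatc

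The labels were first checked on Zbtb16. In the GMP libraries, its normalized counts (reads per gene divided by the size factor of the library) were 705 and 828 in WT against 269 and 369 in Zbtb16lu/lu, a log2 fold change of -1.28 ± 0.20 (SE, n = 2 per genotype, limma adjusted p = 0.299). Zbtb16 reads in 416b cells numbered 632 with Empty vector and 1538 with PLZF-Flag, which gave a log2 ratio of 2.73 after normalization. Both differences followed the labels. The GMP columns summed to 38562940 to 40130730 normalized counts. Reads on the listed genes of 416b cells came to 54529667 in Empty vector and 19995829 in PLZF-Flag, so the PLZF-Flag values carry the larger counting error. Markers of GMPs were abundant in the GMP libraries (Mpo, the granule peroxidase, 477326 to 552003). In 416b cells (Empty vector, then PLZF-Flag) Mpo was almost absent (12.1 and 3.30) and Elane was not listed. Cd34 (11059 and 8823), Kit (6434 and 7267), Fcgr3 (3108 and 3085) and Ctsg (2318 and 1676) were present there, while Csf3r (200 and 198) and Csf1r (53.3 and 54.5) were low. Megakaryocyte markers summed to 30746 and 29590 in 416b cells and erythroid ones to 18680 and 22547, with Hbb-bt at 15941 and 19260. Marker sums of other cell types also moved between GMP libraries. The 10 mature neutrophil genes summed to 14171 and 6473 in WT against 21023 and 10501 in Zbtb16lu/lu, and for 6 of them both Zbtb16lu/lu values exceeded both WT values, with Mmp9 at 0 in WT library 2. That held for 21.7% of all genes tested, and the reverse for 22.1%. Some B, T and NK cell genes below were too low to be tested. The 8 monocyte genes summed to 82717 and 99571 for WT and to between 113288 and 121861 for Zbtb16lu/lu, with 7 higher in this sense and none at 0. Of the 10 GMP markers 4 were higher in this sense, and of the 7 B cell genes, which summed to 5576 and 5933 for WT and 7537 and 7131 for Zbtb16lu/lu, 4 were higher and 1 lower, with Ighm at 4457, 4865, 6246 and 5928 and Ms4a1 at 0 in both Zbtb16lu/lu libraries. The 5 stem cell genes summed to 800 and 786 for WT and to 691 and 693 for Zbtb16lu/lu, while the libraries of each single gene overlapped and none was at 0. The sums of the 6 T and NK cell genes lay between 11077 and 11724, almost all of it Nkg7 (11056 to 11712), while 2 low genes were higher in this sense, Cd3d at 3.42 ± 0.618 (SD, n = 2) in WT against 15.8 ± 5.30, and Klrb1c at 1.48 ± 0.724 against 11.2 ± 3.06. Erythroid sums (301 and 1654 for WT, 1349 and 521 for Zbtb16lu/lu) and megakaryocyte sums (1991 and 4474, 2741 and 1550) varied within genotypes. The part of these cells in the values below was not tested, and in bulk RNA fewer cells of a type and less RNA per cell cannot be told apart.

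All 40 members were measured above the filter in GMPs, and none passed the test between genotypes. With limma on log2(normalized count + 1), the smallest adjusted p of a member was 0.458, for Pcgf3, against a threshold of 0.08, and 0% of the 20531 genes tested passed. At an unadjusted p under 0.05, Cbx7 and Cbx8 were higher in Zbtb16lu/lu and Pcgf3 and Aebp2 lower, beside 5.50% and 4.37% of all genes. The members were therefore described by whether both Zbtb16lu/lu libraries lay on the same side of both WT libraries. That held upwards for 8 members, 20.0% of them, against 21.7% of all genes, and downwards for 11, 27.5%, against 22.1%, and the libraries of 21 members overlapped. The median log2 fold change was -0.05 over the members and -0.01 over all genes. The shares of members lie near those of all genes, and with 2 libraries against 2 an exact permutation test of a single gene cannot go below p = 0.333. In the plot of the members by library, the spread within WT is the wider. The median absolute log2 difference between the WT libraries was 0.23 over the members (0.28 over all genes) and that between the Zbtb16lu/lu libraries 0.12 (0.15).

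**Figure D1:**
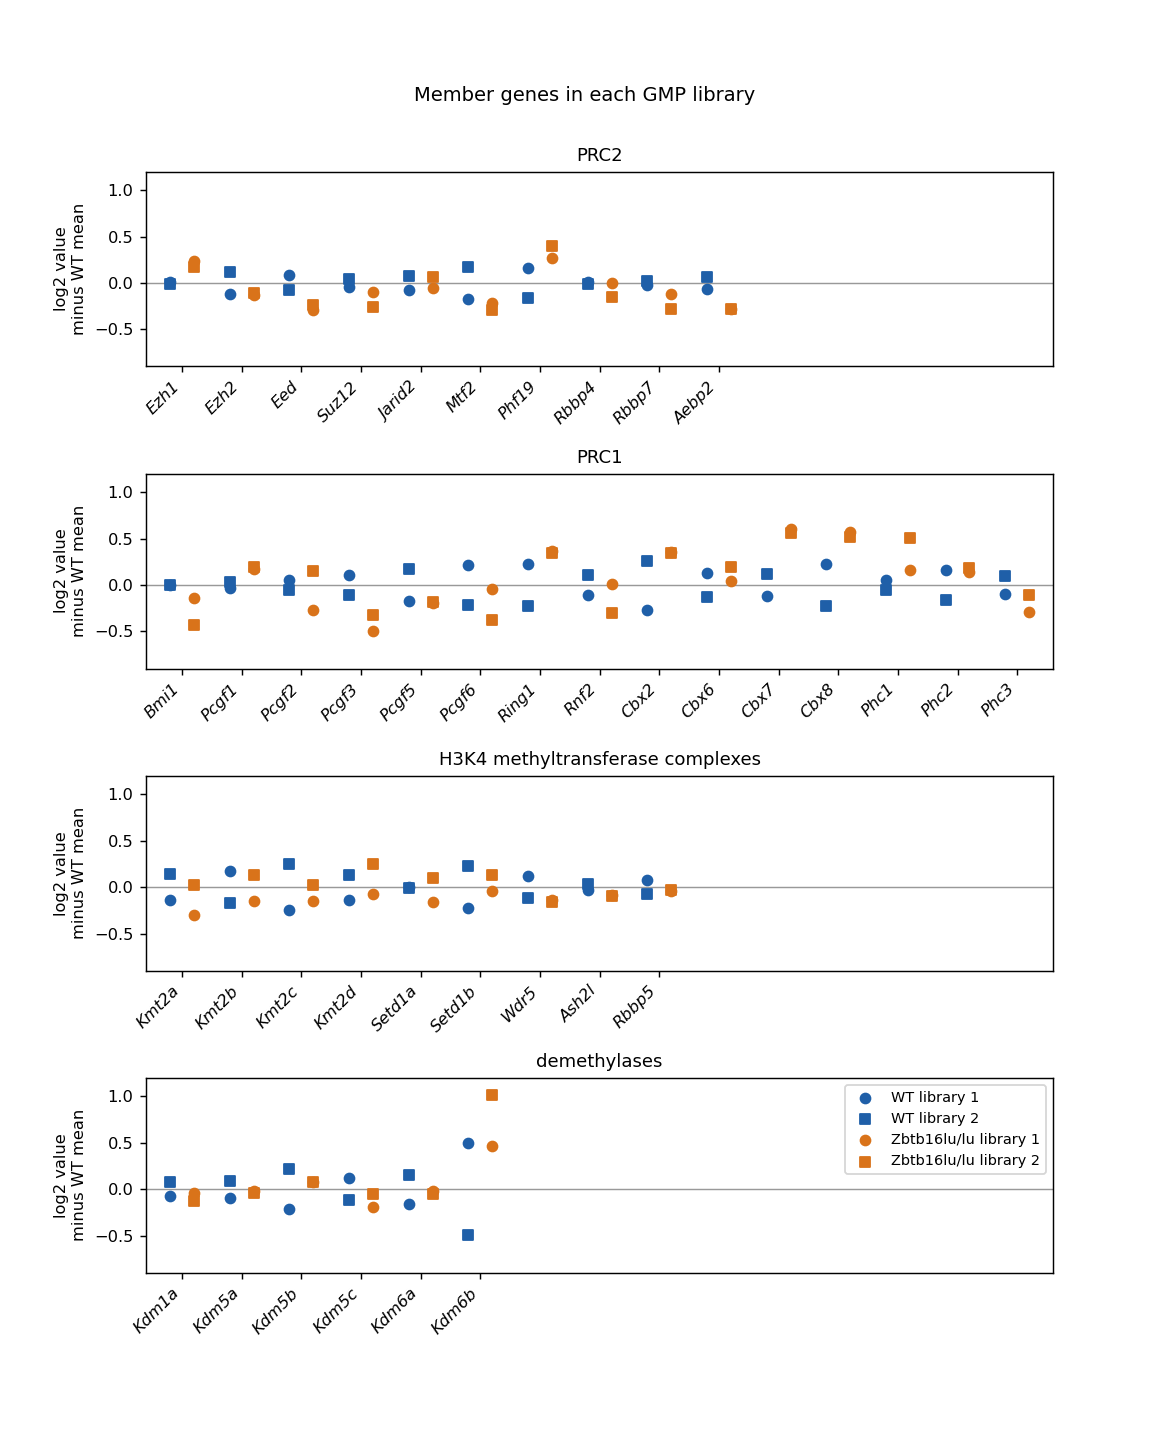
Each point is the log2(normalized count + 1) of a member in a GMP library minus the mean of the WT libraries, with WT in blue, Zbtb16lu/lu in orange, circles for library 1 and squares for library 2, in 4 panels by complex. Zbtb16lu/lu points lie above both WT points for 8 members, such as Cbx7 and Cbx8, below both for 11, such as Pcgf3 and Bmi1, and among them for 21.

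Among the PRC2 genes, Ezh1 and Phf19 had higher values in both Zbtb16lu/lu libraries, and Eed, Suz12, Mtf2, Rbbp7 and Aebp2 lower ones. These are 20.0% and 50.0% of the complex, against 21.7% and 22.1% of all genes. The median log2 fold change of the 10 genes was -0.15, which became -0.086 without WT library 2 and -0.06 with offsets for gene length and GC content. Here and below, values are given for WT libraries 1 and 2 and then for Zbtb16lu/lu libraries 1 and 2. Ezh2, the methyltransferase of dividing cells, had 4380 and 5146 normalized counts in WT against 4346 and 4395 in Zbtb16lu/lu. WT library 1 lay between the Zbtb16lu/lu libraries, so the groups overlapped (log2 fold change -0.12 ± 0.12). Of 12 cell cycle genes, Top2a, Ccnb1, Cdk1 and Ccna2 were lower in both Zbtb16lu/lu libraries (log2 fold changes of -0.26 to -0.34) and Mcm7 higher, beside 22.1% and 21.7% of all genes. The 12 summed to 227115 and 232165 for WT and 220634 and 216961 for Zbtb16lu/lu, with none at 0, and their part in the Ezh2 value was not tested. Ezh1, its paralog with weaker activity, had 1230 and 1205 in WT against 1436 and 1367 in Zbtb16lu/lu, 0.20 ± 0.13 on the log2 scale with an adjusted p of 0.603 in limma. For Eed, which binds methylated H3K27 and stimulates the enzyme, the values were 2659, 2376, 2054 and 2126. Both Zbtb16lu/lu libraries were below WT, with a log2 fold change of -0.27 ± 0.12 (adjusted p = 0.516, limma). Suz12, the scaffold of the core, had 7700 and 8128 in WT against 7382 and 6607, -0.18 ± 0.11.

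The accessory subunits of PRC2 set where and how strongly the complex acts, and their values differed in both directions. Aebp2, a zinc finger cofactor, had 3000 and 3266 normalized counts in WT against 2574 and 2584 in Zbtb16lu/lu (log2 fold change -0.28 ± 0.12, adjusted p = 0.491 in limma). Phf19, a Polycomb-like protein that binds H3K36 methylation, had 1102, 878, 1189 and 1293, so the gap between its WT libraries was larger than that between WT library 1 and Zbtb16lu/lu library 1. Its log2 fold change was 0.33 ± 0.16 (adjusted p = 0.518). Mtf2, another Polycomb-like protein, was at 5284 and 6734 in WT and at 5121 and 4890 in Zbtb16lu/lu (-0.25 ± 0.14). Its WT libraries lay further apart than WT library 1 and either Zbtb16lu/lu library. Jarid2, which helps to recruit PRC2, had 3670, 4071, 3725 and 4027, a log2 fold change of 0.00 ± 0.12, and overlapped. The histone-binding chaperones Rbbp4 and Rbbp7, which serve other complexes too, had log2 fold changes of -0.08 (libraries overlapping) and -0.20 (both Zbtb16lu/lu libraries lower).

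PRC1 held the members with the widest range, from -0.41 for Pcgf3 to 0.58 for Cbx7, around a median of 0.12, which was -0.014 without WT library 2. In both Zbtb16lu/lu libraries 6 of its 15 genes were higher (Pcgf1, Ring1, Cbx2, Cbx7, Cbx8 and Phc1), which is 40% against 21.7% of all genes, 4 were lower (Bmi1, Pcgf3, Pcgf5 and Phc3), 26.7% against 22.1%, and 5 overlapped. Cbx7, a reader of H3K27 methylation prominent in stem cells, had 175 and 207 normalized counts in WT against 289 and 281 in Zbtb16lu/lu, a log2 fold change of 0.58 ± 0.21 (adjusted p = 0.466, limma). Cbx8, a reader prominent in committed cells, had 402 and 291 in WT against 508 and 491 in Zbtb16lu/lu, 0.54 ± 0.20 (adjusted p = 0.468). For Cbx8, the WT libraries lay further apart than WT library 1 and the nearer Zbtb16lu/lu library. For Cbx2, which compacts chromatin, the values were 281, 406, 433 and 431, and WT library 2 was close to both Zbtb16lu/lu libraries (0.35 ± 0.21). Cbx6 (0.12 ± 0.14) overlapped, and its gene lies over Npcd on the same strand for 10342 bases, so that its reads may not be its own alone.

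Bmi1 (Pcgf4), the PCGF protein of canonical PRC1, was lower in both Zbtb16lu/lu libraries, with 1574 and 1563 normalized counts in WT against 1421 and 1160 in Zbtb16lu/lu. The log2 fold change was -0.29 ± 0.14 (adjusted p = 0.536, limma). Pcgf3, which directs variant PRC1 forms, had 1617 and 1383 in WT against 1058 and 1200 in Zbtb16lu/lu (-0.41 ± 0.14). Its relative in such forms, Pcgf5, had 3611, 4604, 3571 and 3583, and the gap between the WT libraries was far wider than the difference between WT library 1 and either Zbtb16lu/lu library. Pcgf6, of the E2F6-linked form, overlapped with 818, 606, 684 and 541 (-0.21 ± 0.20), and so did Pcgf2, the Bmi1 paralog, with 77.6, 72.3, 62.2 and 83.3 (-0.06 ± 0.32). Pcgf1, of the BCOR-linked form, was low throughout, at 144 to 170 (0.18 ± 0.23).

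Of the E3 ligase subunits, neither passed the test, and the libraries of Ring1 did not overlap between genotypes while those of Rnf2 did. Ring1 had 726 and 528 normalized counts in WT against 797 and 784 in Zbtb16lu/lu, a log2 fold change of 0.35 ± 0.18 (adjusted p = 0.553, limma). Its WT libraries lay further apart than WT library 1 and either Zbtb16lu/lu library. Rnf2 (Ring1b), the more abundant ligase, had 1964, 2283, 2135 and 1713, and its libraries overlapped (-0.15 ± 0.15). Among the polyhomeotic proteins, which polymerize PRC1, Phc1 had 389 and 359 in WT against 417 and 533 in Zbtb16lu/lu (0.34 ± 0.19). Phc2 overlapped (0.16 ± 0.15) and Phc3 was lower in both Zbtb16lu/lu libraries (-0.20 ± 0.14).

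The genes for H3K4 methylation spanned the narrowest range of the 4 groups. Their 9 log2 fold changes lay between -0.15 and 0.09, with a median of -0.04, and 7 overlapped while 2 were lower (22.2%, against 22.1% of all genes). That median was -0.18 with the offsets, which put all 9 genes below 0, and it was -0.13 without Zbtb16lu/lu library 2 and 0.020 without Zbtb16lu/lu library 1. Wdr5, the WD40 subunit shared by all these complexes, had 7771 and 6606 normalized counts in WT against 6525 and 6392 in Zbtb16lu/lu (-0.15 ± 0.12, adjusted p = 0.679 in limma). Its WT libraries lay further apart than WT library 2 and either Zbtb16lu/lu library. Ash2l, another shared subunit, was lower in both Zbtb16lu/lu libraries (log2 fold change -0.09 ± 0.11), and Rbbp5, the third of them here, overlapped at -0.04 ± 0.12. Kmt2a, the MLL1 enzyme of hematopoietic progenitors, had 2893, 3495, 2579 and 3220. Kmt2d, an enhancer methyltransferase, had 3299, 3976, 3448 and 4311. In both genes the libraries of a genotype differed by more than the genotype means. Setd1b, with 353, 484, 402 and 453 (0.05), Kmt2b (-0.01), Kmt2c (-0.06) and Setd1a (-0.03) also overlapped, and Setd1a lies over the gene model Gm49388 on the same strand.

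The libraries of all 6 demethylase genes overlapped between genotypes, so that 0 were higher and 0 lower, beside 21.7% and 22.1% of all genes. Kdm6b, which removes H3K27 methylation and is induced in activated macrophages, had the highest log2 fold change of all members, 0.74 ± 0.33 (adjusted p = 0.509, limma). Its values were 324 and 163 normalized counts in WT against 317 and 467 in Zbtb16lu/lu, so the difference came from WT library 2 and Zbtb16lu/lu library 2, and the other libraries were alike. Kdm6a (UTX), the other H3K27 demethylase here, was at 1803, 2241, 1984 and 1935. Kdm1a (LSD1), which acts on H3K4 and is needed for granulocyte maturation, was at 4388, 4883, 4491 and 4227. Kdm5c, an H3K4 demethylase, was at 6722, 5699, 5431 and 5953. All of these overlapped, with log2 fold changes of -0.04, -0.09 and -0.12, as did Kdm5a (-0.03) and Kdm5b (0.08).

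A column code in the GMP table was shared by WT library 1 and Zbtb16lu/lu library 2, and the difference was computed within that pair and between the other libraries. For the 19 members that did not overlap the sign is fixed by that choice, so the sizes are what can be compared. Cbx7 differed by 0.68 within the shared code and by 0.48 in the others, and Pcgf3 by -0.43 and -0.39. In contrast, Ring1 differed by 0.11 and 0.59, Cbx2 by 0.61 and 0.09, Cbx8 by 0.29 and 0.80, and Bmi1 by -0.44 and -0.14. Leaving out a WT library changed the calls. Without WT library 1, limma called 11 members (5 higher, 6 lower) at the threshold of 0.08, beside 23.0% of all genes. They were Cbx8, Kdm6b, Phc2, Phf19 and Ring1, and Aebp2, Kmt2a, Kmt2c, Mtf2, Pcgf5 and Phc3. Without WT library 2 it called 6 (3 higher, 3 lower), beside 13.8%, namely Cbx2, Cbx7 and Kdm5b, and Eed, Pcgf3 and Pcgf6. The lists shared 0 members, which is 0% of each, and with either Zbtb16lu/lu library left out 0 members were called. With a single WT library, the fit takes its spread from the close pair of Zbtb16lu/lu libraries.

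Direction among the members went with the base composition of their transcripts. Of the 20 members with the higher GC content in the longest transcript (50.6% to 60.4%), 13 had a log2 fold change above 0, with a median of 0.14. Of the 20 with the lower GC content (38.2% to 48.8%), 18 had one below 0, with a median of -0.16. The same split was seen between the WT libraries, where library 1 exceeded library 2 for 13 of the 20 members with higher and 6 of the 20 with lower GC content. All genes tested showed the split between genotypes, with medians of 0.11 and -0.11. Offsets for gene length and GC content remove such a trend over all genes by construction. With them, the medians of the members were -0.06 and -0.05 and those of all genes -0.05 and -0.04. The higher PRC1 genes lie in the GC-rich part, as the plot by GC content shows. With the offsets, Cbx7 and Cbx8 were at 0.39 each, Phf19 at 0.20, Ring1 at 0.15, Cbx2 at 0.14 and Kdm6b at 0.48. On the lower side Pcgf3 was at -0.32, Eed at -0.27, Bmi1 at -0.15, Aebp2 at -0.15 and Phc3 at -0.10. Other members that were lower without the offsets moved close to 0, with Mtf2 at -0.08, Suz12 at -0.06 and Pcgf5 at -0.04. The medians by complex became -0.06 for PRC2, -0.03 for PRC1, -0.18 for the H3K4 methyltransferase genes and 0.07 for the demethylases, so those of PRC1 and of the demethylases changed sign.

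**Figure D2:**
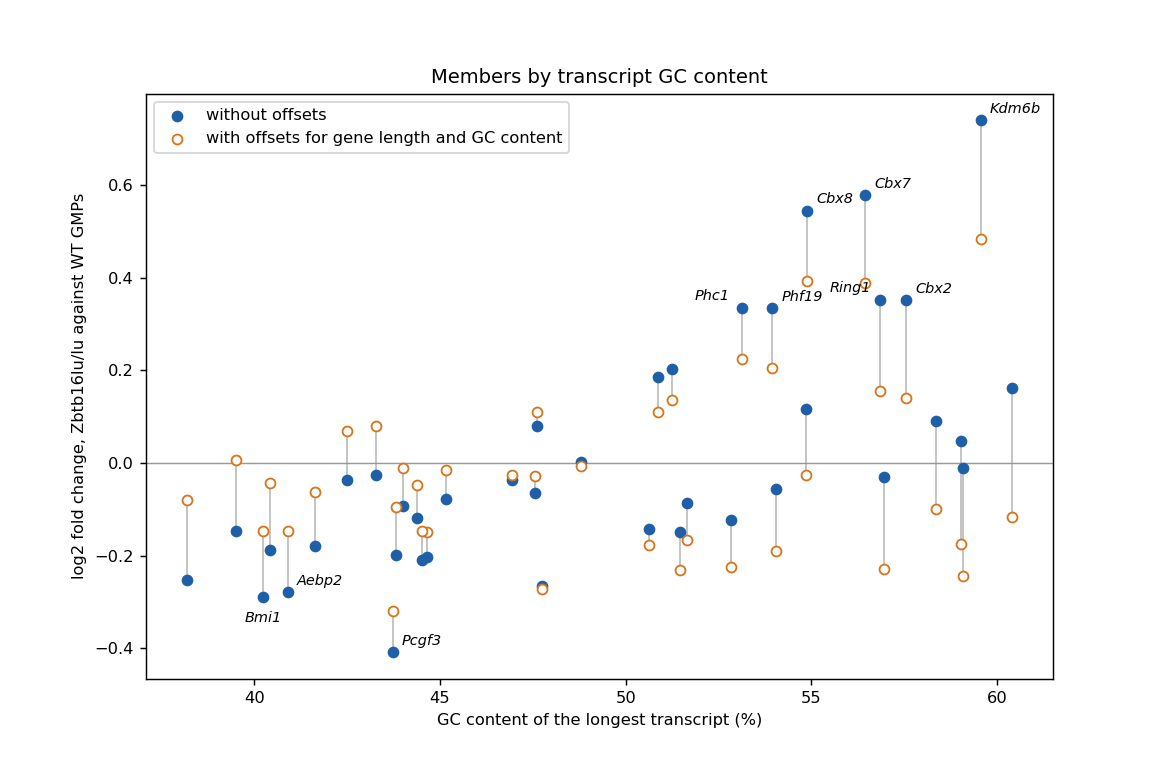
Log2 fold change of each member between Zbtb16lu/lu and WT GMPs against the GC content of its longest transcript, in percent, without offsets (filled blue) and with offsets for gene length and GC content (open orange), joined by a line for each gene. Blue points run from mostly below 0 at low GC content to mostly above 0 at high GC content, and the orange points of Cbx7, Cbx8 and Kdm6b stay at 0.39, 0.39 and 0.48.

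Other genes of the same pathways, from lists of further PRC2, PRC1, H3K4 complex and demethylase subunits and of the H2A deubiquitinase PR-DUB, were read in the same way. Of 42 listed genes 41 were tested and 0 passed the threshold in limma (smallest adjusted p = 0.428). Both Zbtb16lu/lu libraries were higher for 4, 9.76% of those tested against 21.7% of all genes, and lower for 13, 31.7% against 22.1%, and 24 overlapped. Mbd6, a methyl-CpG-binding domain protein found with PR-DUB, was at 373 and 340 normalized counts in WT against 385 and 527 in Zbtb16lu/lu, the highest log2 fold change of those 4 (0.34 ± 0.20). Rybp, the subunit that competes with CBX proteins for the ligase and defines variant PRC1, was at 861 and 722 in WT against 595 and 567 in Zbtb16lu/lu, the lowest log2 fold change of the 13 (-0.44 ± 0.16). With the offsets for gene length and GC content, Mbd6 turned to -0.04 and Rybp was at -0.36, and the median of the genes tested went from -0.04 to -0.12.

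In 416b cells, the members differed little between PLZF-Flag and Empty vector. No member of the 38 listed reached an absolute log2 ratio of 0.5 between PLZF-Flag and Empty vector, beside 6.24% of the 11836 genes with a mean of at least 10. The members ran from -0.19 for Bmi1 to 0.30 for Jarid2, with a median of 0.04. With 1 library per condition there is no test, and the 95% exact binomial intervals given cover counting error only. The interval lay above 0 for 11 members, beside 16.1% of all genes, and below 0 for 3 (Suz12, Mtf2 and Bmi1), beside 15.9%, and it included 0 for the other 24. Members had 82 (Cbx7) to 8429 (Rbbp4) PLZF-Flag reads, while the genes they are set beside include ones with a mean near 10. The shares in this paragraph are therefore not matched for depth, which sets both the spread of a ratio and the width of its interval. Phf19 and Cbx6 were not in the table. Every gene listed there had a value above 0 in both libraries, but the rule for listing genes was not given.

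Among the PRC2 genes in 416b cells, Jarid2 was covered by 3348 Empty vector reads and 1515 PLZF-Flag reads, with a log2 ratio of 0.30 (0.22 to 0.39) between its normalized counts of 2026 and 2503. The core subunits differed less, with 0.05 for Ezh2 (8316 and 3149 reads), -0.03 for Eed (3726 and 1340 reads) and -0.08 (-0.13 to -0.03) for Suz12 (12555 and 4350 reads). Ezh1, at 2651 and 903 reads, had a log2 ratio of -0.10 with an interval of -0.22 to 0.00 that just included 0. Mtf2 was at 4856 and 1646 reads, -0.11 (-0.19 to -0.03).

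In PRC1, Bmi1 was lower with PLZF-Flag, at 3153 normalized counts against 3605 for Empty vector, from 1908 and 5957 reads, a log2 ratio of -0.19 (-0.27 to -0.12). Its paralog Pcgf2 went the other way, with 1031 and 446 reads and a ratio of 0.24 (0.08 to 0.40). Phc1 had 1699 and 751 reads and a ratio of 0.27 (0.15 to 0.40), Phc2 a ratio of 0.15 and Ring1 a ratio of 0.17 (0.02 to 0.33). Rnf2 was at -0.01 (-0.10 to 0.08). Cbx7 was covered by 247 and 82 reads only, and with an interval of -0.52 to 0.22 no difference could be detected with so few reads. Cbx8, with 784 and 325 reads, had a ratio of 0.18 with an interval of -0.01 to 0.37.

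Of the H3K4 methyltransferase genes, Setd1b (3452 and 1415 reads) had a log2 ratio of 0.16 (0.07 to 0.25), Kmt2a (1832 and 726 reads) 0.11 (-0.01 to 0.24) and Kmt2d (2305 and 834 reads) -0.02 (-0.13 to 0.10). Among the demethylases, Kdm6b (1070 and 467 reads) was at 0.25 (0.09 to 0.41) and Kdm1a (7764 and 3115 reads) at 0.13 (0.07 to 0.19). Kdm5c (7565 and 2795 reads) and Kdm6a (3549 and 1255 reads) had intervals that included 0, around 0.01 and -0.05. Of the other pathway genes, Lcor, whose locus encodes a PRC2 accessory protein, was past 0.5 at 253 and 59 reads, -0.65 (-1.09 to -0.24), and Phf1 at 89 and 22 reads had -0.55 with an interval from -1.31 to 0.12.

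**Figure D3:**
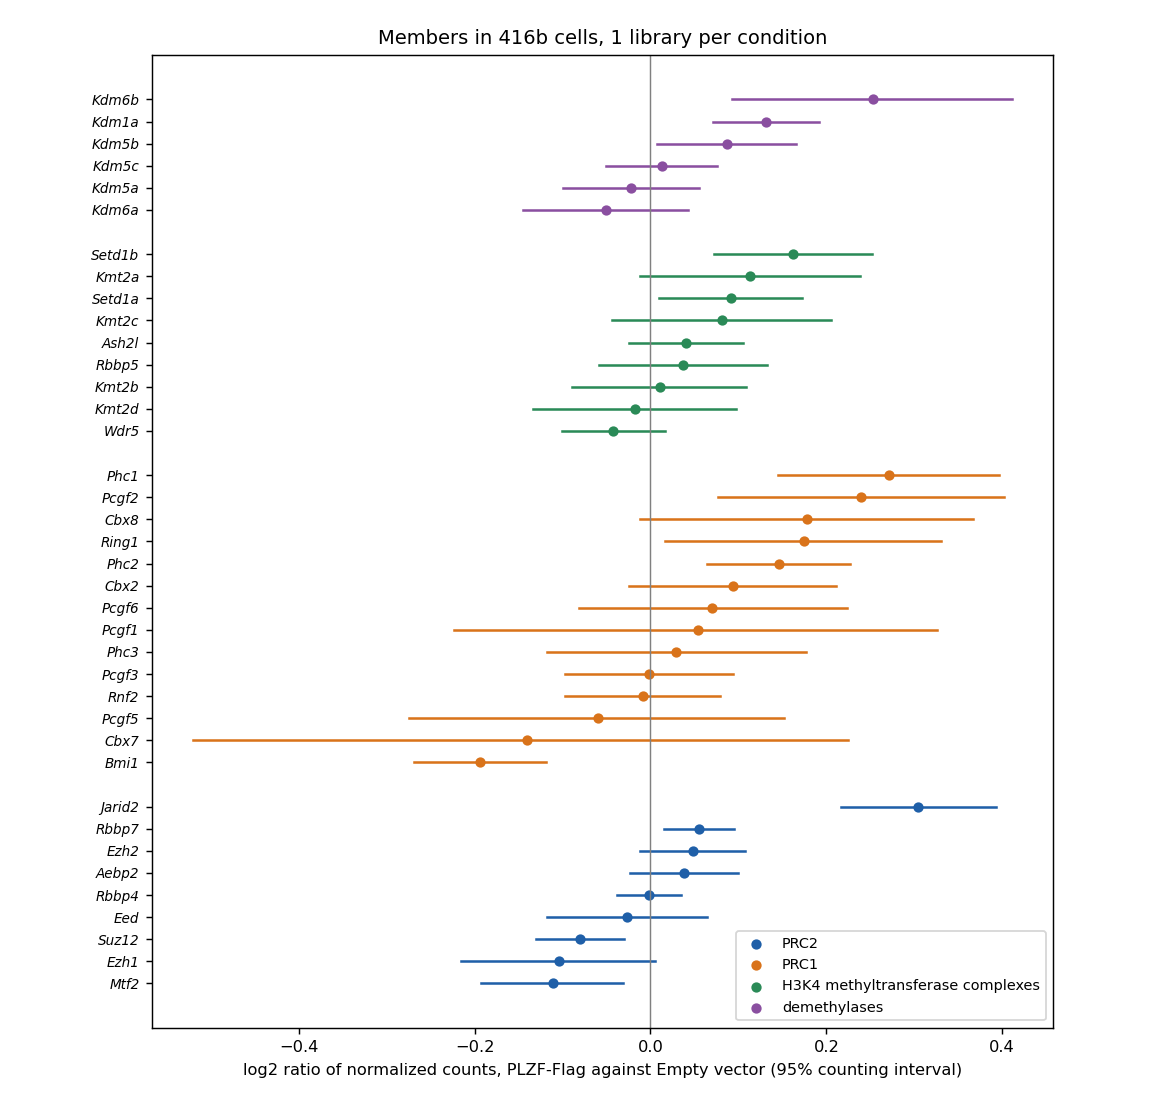
Log2 ratio of normalized counts + 1 between the PLZF-Flag and Empty vector libraries of 416b cells for the 38 members listed, coloured by complex, with the 95% exact binomial interval from the reads as a line. All points lie between -0.19 (Bmi1) and 0.30 (Jarid2), and the widest line is that of Cbx7, from -0.52 to 0.22.

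The Zbtb16lu/lu mutation in GMPs and PLZF-Flag in 416b cells were set side by side. The log2 values had opposite signs in 17 of the 38 members, 44.7%, against 47.6% of the 11215 genes in both tables. Of the 17, 3 were higher in Zbtb16lu/lu and lower with PLZF-Flag and 14 the reverse, 7.89% and 36.8% of the members, against 22.4% and 25.2% of the genes in both tables. The GMP signs used here are those without the offsets for gene length and GC content. With the offsets, Jarid2, Rnf2, Phc2, Kmt2d, Setd1b, Kdm5a and Kdm6a changed sign, so these counts depend on that choice. Bmi1 was lower in Zbtb16lu/lu GMPs (-0.29) and also lower in PLZF-Flag cells (-0.19), whereas Ring1 (0.35 and 0.17) and Phc1 (0.34 and 0.27) were higher in both. The kits and depths of these experiments differed, and no test compared them.

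RNA levels were compared between genes per kb of exon. In WT GMPs the highest normalized counts per kb were those of Rbbp7 (3857), Wdr5 (1999), Rbbp4 (1782), Suz12 (1600) and Mtf2 (1055), and the lowest those of Pcgf2 (21.3), Cbx7 (29.5), Setd1b (34.7) and Kdm6b (35.0). Rbbp7, Rbbp4, Suz12 and Wdr5 also led the 416b Empty vector library, at 3755, 1595, 1536 and 1495 per kb. Within families, the share of each paralog in the family's sum per kb does not depend on the scaling of a library, but it still carries the trend with GC content. Ezh2 made up most of the EZH pair, and Ezh1 held 20.1% and 17.4% in WT against 22.9% and 21.8% in Zbtb16lu/lu, so that its share was higher in both Zbtb16lu/lu libraries. Ring1 held 32.0% and 22.7% of the RING pair in WT against 32.2% and 36.8% in Zbtb16lu/lu, with WT library 1 next to Zbtb16lu/lu library 1. With the offsets, the log2 fold changes within these pairs came closer, to 0.14 for Ezh1 and -0.05 for Ezh2 and to 0.15 for Ring1 and 0.01 for Rnf2, from 0.20 and -0.12 and from 0.35 and -0.15 without them. The share of Phc1 went from 19.1% and 19.8% to 20.9% and 24.4%, and that of Phc3 from 20.1% and 25.9% to 18.0% and 18.5%.

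Of the 22 paralogs in these families, 15 had shares that did not overlap between the GMP and the 416b libraries, 7 of them higher and 8 lower in 416b cells. The shares of a family add up to a fixed total, so a rise of a paralog lowers the others by construction. No such count was made for other gene families, so these numbers have no background. Bmi1 held 31.2% to 35.5% of the PCGF sum in the 4 GMP libraries and 55.6% and 50.8% in Empty vector and PLZF-Flag 416b cells. Pcgf5 held 25.4% to 32.1% in GMPs and 2.07% in each 416b library, and Pcgf2 1.75% to 2.53% and 10.9% to 13.4%. In the KMT2 family, Kmt2b held 23.7% to 33.3% in GMPs and 49.3% to 50.2% in 416b cells, and in the KDM6 pair Kdm6b held 8.06% to 22.5% and 26.7% to 31.0%. The tables were made with different library kits and normalized separately, so the cell type and the kit cannot be told apart in these shares.

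**Figure D4:**
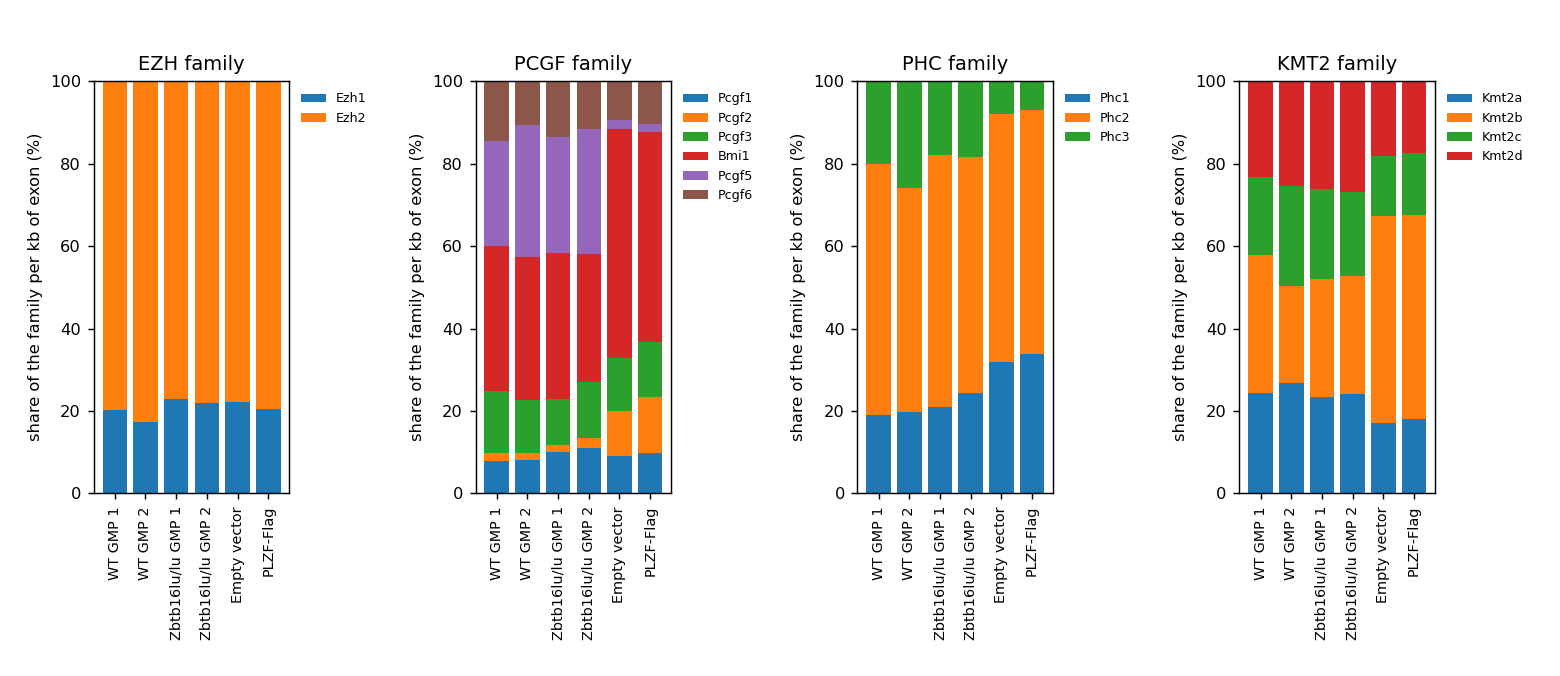
Share of each paralog, in percent of the family's normalized counts per kb of exon, for the EZH, PCGF, PHC and KMT2 families in the 4 GMP libraries and the 2 libraries of 416b cells. The PCGF bars differ most between the cell types, with Pcgf5 near 2.07% and Bmi1 at 50.8% or more in 416b cells and Pcgf5 between 25.4% and 32.1% in GMPs.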

How the data were processed

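The RNA-seq comprised 2 libraries each of WT and Zbtb16lu/lu GMPs and 1 library each of Empty vector and PLZF-Flag 416b cells. Samples of ChIP-seq and ATAC-seq were not used here. GMP libraries were stranded total RNA depleted of ribosomal RNA, and 416b libraries came from a low-input SMART-Seq kit. Per the labels and methods, the authors aligned reads with Subread (build mm10), used featureCounts for reads per gene and scaled these by DESeq2 size factors. The signal values as deposited are these normalized counts. The strand setting and annotation of the counting are not given in the sources used here. Both libraries of a genotype belong to 1 record, fewer than the RNA extractions the methods describe, and nothing says which animals they came from, so p-values measure only the spread between these libraries. The authors' log2 means, fold changes and p-values were not used.

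For GMPs, limma-trend (two-sided) was run on log2(normalized count + 1) over 20531 genes that reached 10 in 2 or more libraries, adjusted by Benjamini-Hochberg, and a threshold of 0.08. All GMP values above 0 (100%) were whole multiples, within 0.02, of the smallest value of their library (0.994, 0.964, 1.00 and 1.03), and these multiples summed to 37562999 to 40170636 per library, which is the depth if they are reads. No count test was run on them, since values with steps so close to 1 were not accepted as recovered reads. For 416b cells, values were multiples of 0.605 and 1.65, the values of 1 read, and 84.8% and 85.5% came out whole within 0.02 of a read. Log2 ratios were taken after adding 1, with exact (Clopper-Pearson) intervals on these reads, which are not independent molecules. A count test would need replicates.

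Positions, exon lengths and GC content came from GENCODE M21 (GRCm38), and promoters from RefSeq, with the most upstream start taken where a gene had several. Offsets were a loess curve (span 0.3) of each library's deviation against GC content and log2 length. Members and lists were chosen with earlier results of these data known. Values in every library were given for a set list of catalytic or core subunits (Ezh1, Ezh2, Eed, Suz12, Bmi1, Ring1, Rnf2, Kmt2a, Kmt2d, Kdm1a, Kdm5c, Kdm6a and Kdm6b), for the highest and lowest member of each complex among those whose libraries did not overlap, and for the 2 with the largest 416b ratio. Cbx2, Cbx8, Pcgf5 and Pcgf6 were added after their values were seen. Alternatives were pseudocounts of 0.1 and 10, no filter, a minimum mean of 100, equal totals, quantile normalization, the offsets, no intensity trend, omission of each library and a threshold of 0.05, and for 416b cells edgeR TMM and total counts. A further gene was left out and is not reported here. Steps were tested on simulated data. Fits were made in R 4.3.3 with limma 3.58.1, TMM factors with edgeR 4.0.16, and the rest in Python 3.11.15 with pandas 2.3.3, scipy 1.17.1 and numpy 2.4.6.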

Additional observations from a re-analysis of the deposited data

How the results depend on the processing

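In GMPs, 0 genes and 0 members were called by limma under both pseudocounts, both filters, equal totals, quantile normalization, the offsets, no intensity trend and a threshold of 0.05, with the smallest adjusted p of all genes between 0.209 and 0.615. At an unadjusted p under 0.05, 4 members were found as reported and 1 to 5 under these alternatives. Leaving out each library gave 1 to 4645 genes and 0 to 11 members called. That leaves a genotype with 1 library, which is assumed to vary like the other pair. Of the 19 members whose libraries did not overlap, none changed sign under equal totals, quantile normalization or the offsets. Their sign is fixed by construction when a library is left out. The medians by complex ranged over the omissions from -0.20 to -0.086 for PRC2, from -0.014 (without WT library 2) to 0.18 for PRC1, from -0.13 to 0.020 (without Zbtb16lu/lu library 1) for the H3K4 methyltransferase genes and from -0.13 to 0.092 (without WT library 2) for the demethylases, and the last was 0.0060 under quantile normalization. Members whose libraries overlapped changed sign under equal totals (Jarid2 -0.0015), under quantile normalization (Kmt2b 0.017, Rbbp5 0.0025 and Kdm5a 0.021) and with the offsets (Jarid2 -0.0065, Rnf2 0.0073, Cbx6 -0.026, Phc2 -0.12, Kmt2d -0.10, Setd1b -0.18, Kdm5a 0.079 and Kdm6a 0.068). Over the omissions of a library, the overlapping members that changed sign ranged as Jarid2 from -0.072 to 0.078, Pcgf6 from -0.43 to 0.0064, Kmt2b from -0.19 to 0.16, Kmt2d from -0.071 to 0.25, Setd1b from -0.18 to 0.27, Rbbp5 from -0.12 to 0.042, Kdm5b from -0.13 to 0.29, Cbx6 from -0.016 to 0.25, Phc2 from -0.0041 to 0.33, Kmt2c from -0.31 to 0.18, Kdm5a from -0.12 to 0.065, Kdm6a from -0.19 to 0.12, Pcgf2 from -0.26 to 0.15, Kmt2a from -0.30 to 0.018, Setd1a from -0.16 to 0.097 and Rnf2 from -0.31 to 0.012. The offsets remove the trend with GC content and length by construction, and the cause of the other changes was not tested. In 416b cells, 0 members reached the ratio of 0.5 under edgeR TMM scaling, total counts or either pseudocount. edgeR and DESeq2 tests of GMP reads were not run. No paired analysis was possible because the GMP columns carry no replicate numbers and a block for their codes, of which only one is shared, would leave no residual degrees of freedom. The 2 GMP libraries per genotype and the single 416b library per condition limit what can be seen at low counts, such as those of Pcgf2 and Cbx7.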

Other observations

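Cbx6 and Cbx7 lie near each other on chromosome 15, a neighbourhood looked at after the values were seen. Between them lies Apobec3, a cytidine deaminase gene that restricts retroviruses, with 5852 and 5342 in WT against 4626 and 4955 in Zbtb16lu/lu (-0.22 ± 0.11, adjusted p = 0.551, limma). Its end overlaps that of Cbx7 on the opposite strand by 100 bases, and the 2 genes had log2 fold changes of opposite sign.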
